A study of Mus musculus with 6 samples.

Results

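Myostatin, the activins, their soluble antagonists and their receptors were followed in cultured mouse cells labelled primary myoblasts. Myoblasts are the precursor cells of skeletal muscle. The cells were studied with and without exposure to transforming growth factor beta (TGFb). The set held 9 genes: the ligands Mstn, Gdf11, Inhba and Inhbb, the antagonists Fst and Fstl3, and the receptors Acvr2a, Acvr2b and Acvr1b. Its members were the non-control probes that carry one of these gene names in the array annotation, 11 probes of 55681. All 11 were well above background and unsaturated on all 6 arrays, so all 9 genes were among the 21864 genes tested.

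The cells were primary myoblasts sorted by flow cytometry from skeletal muscle of male C57BL/6 mice aged 3 months and grown in DMEM with 20% serum. One group was exposed to TGFb for 4 days and the other was left untreated, with 3 arrays per group; the sources used here do not state the isoform or dose of TGFb, and no transgene or deletion is stated for either group. RNA was hybridised to 1-colour Agilent whole-genome arrays, and the labels call the replicates biological. They do not say whether cultures came from separate mice, so p-values measure the spread between these samples.

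Myostatin and the activins are secreted dimers of the TGFb superfamily that bind a type II receptor, ACVR2A or ACVR2B, which recruits a type I receptor such as ACVR1B. The receptor complex phosphorylates SMAD2 and SMAD3, the same SMADs that TGFb itself uses through its own receptors. In muscle, myostatin limits fibre size, activin A can act in the same direction, and follistatin and FSTL3 bind these ligands outside the cell and block them.

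The sequences behind the 4 members that passed the test with scan day in the fit are shown first. The 60-base probes of Inhba (mm9, chr13:16118634-16118693, plus strand) and Gdf11 (mm9, chr10:128322284-128322343, minus strand) are printed because they are the measuring reagents for a ligand that was higher and one that was lower.
Inhba probe: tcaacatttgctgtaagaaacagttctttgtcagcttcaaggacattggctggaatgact
Gdf11 probe: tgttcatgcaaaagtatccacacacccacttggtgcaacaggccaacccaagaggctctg
The Mstn probe lies at chr1:53124482-53124541 (plus strand) and the Fstl3 probe at chr10:79244916-79244975 (plus strand), both in mm9. No mm9 gene annotation was used here, so exon and UTR positions are not stated for any probe.

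The 250 bases before the annotated start of the same 4 genes are printed so that the promoters of members that moved in each direction can be compared. They come from RefSeq with GRCm38.p6 coordinates, a different build from the probes. Capitals mark CAGAC (the core of the SMAD-binding CAGA box; GTCTG on the other strand) and CANNTG (the E-box, bound by MYOD1 and other basic helix-loop-helix factors, which reads the same pattern on both strands).
Mstn promoter, chr1:53061390-53061639, plus strand: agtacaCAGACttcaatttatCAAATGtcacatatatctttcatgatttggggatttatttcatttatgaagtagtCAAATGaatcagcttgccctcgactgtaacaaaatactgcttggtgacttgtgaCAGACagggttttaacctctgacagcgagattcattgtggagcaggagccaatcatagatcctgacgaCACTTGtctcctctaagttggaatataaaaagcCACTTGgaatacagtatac
Gdf11 promoter, chr10:128891719-128891968, minus strand: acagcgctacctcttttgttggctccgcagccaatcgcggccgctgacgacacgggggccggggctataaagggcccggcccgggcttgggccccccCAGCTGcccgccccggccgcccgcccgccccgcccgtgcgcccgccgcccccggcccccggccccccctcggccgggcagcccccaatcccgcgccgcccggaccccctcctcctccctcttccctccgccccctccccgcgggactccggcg
Inhba promoter, chr13:16011601-16011850, plus strand: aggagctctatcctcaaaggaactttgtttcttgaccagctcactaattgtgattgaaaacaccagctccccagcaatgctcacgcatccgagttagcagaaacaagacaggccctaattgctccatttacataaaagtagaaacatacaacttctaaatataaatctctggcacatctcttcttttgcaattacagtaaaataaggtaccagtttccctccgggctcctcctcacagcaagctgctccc
Fstl3 promoter, chr10:79777024-79777273, plus strand: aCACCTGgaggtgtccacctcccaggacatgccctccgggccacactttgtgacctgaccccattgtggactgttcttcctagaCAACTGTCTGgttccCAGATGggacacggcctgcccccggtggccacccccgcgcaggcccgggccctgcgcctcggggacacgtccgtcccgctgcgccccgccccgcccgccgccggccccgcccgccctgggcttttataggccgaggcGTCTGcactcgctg
The Mstn promoter held 2 CAGAC matches, beginning at positions -244 and -120 from the start, and 4 CANNTG matches, with a GC content of 38.4%. The Inhba promoter held neither motif at a GC content of 43.2%. The Gdf11 promoter, at 81.2% GC, held 1 CANNTG and no CAGAC, and the Fstl3 promoter, at 71.2% GC, held 2 CAGAC and 3 CANNTG, of which 1 pair shares bases. The 2 members that were higher thus differ in these letters, as do the 2 that were lower. Over 32851 RefSeq promoters cut to the same length, 42.2% held CAGAC and 66.2% held CANNTG. Of the other members with an entry, Acvr2a and Acvr2b each held 1 CAGAC, Acvr1b held 1 CANNTG and Inhbb held neither. Fst had no entry. A match describes letters in a window and is not evidence of binding.

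Scan day and a pair of similar arrays touch every value. The arrays were scanned on 2 days, with TGFb replicate 1 and untreated replicates 1 and 2 on day 1 and the other 3 arrays on day 2. A pair of arrays from one group but different days differed more (SD of gene-wise log2 differences 1.19 to 1.30) than a TGFb and an untreated array of one day (0.631 to 0.843). Each member is therefore given from a fit with group only and from one that also holds scan day, called the day-adjusted fit. Untreated replicates 1 and 2 carry the same number in their file names and differed by an SD of 0.22, against 0.616 for TGFb replicates 2 and 3, the other pair sharing group and day, and 0.139 to 0.194 between spots of one probe within an array. Whether they come from separate cultures is not certain. If they do not, the untreated n is 2 rather than 3, which would make the printed errors and p-values too small. Member and list counts are therefore also given with these arrays averaged into 1 sample. Across arrays the 75th percentile of processed intensity ranged from 876 to 1569 and 52.0% to 56.7% of spots were well above background.

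After TGFb, myostatin mRNA was lower, activin A subunit mRNA was higher, and the antagonist Fstl3 was higher on every array. With group as the only term, limma called 1 of the 9 members (Mstn, lower) at an adjusted p under 0.05, against 1.4% of all genes tested. The day-adjusted fit called 4 of 9, Inhba and Fstl3 higher and Mstn and Gdf11 lower, against 10.2% of all genes. When untreated replicates 1 and 2 were also averaged, 3 of 9 passed (Inhba, Fstl3 and Mstn), against 3.11% of all genes. The groups did not overlap in 5 of 9 members (the same 4 and Acvr2a), against 17.9% of all genes. The median log2 difference (TGFb minus untreated) over the members was -0.21, against 0.05 over all genes tested. Day-adjusted, it was -0.34 against 0.04. The day-adjusted count of 4 members became 3 without TGFb replicate 1 or without untreated replicate 1, 2 without untreated replicate 2 and 1 without untreated replicate 3, and stayed at 4 without TGFb replicate 2 or 3. Of all 21864 genes, 2229 were called day-adjusted, and 662, 1769 and 3345 without TGFb replicates 1, 2 and 3. Without untreated replicates 1, 2 and 3 the calls over all genes numbered 690, 627 and 330.

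**Figure D1:**
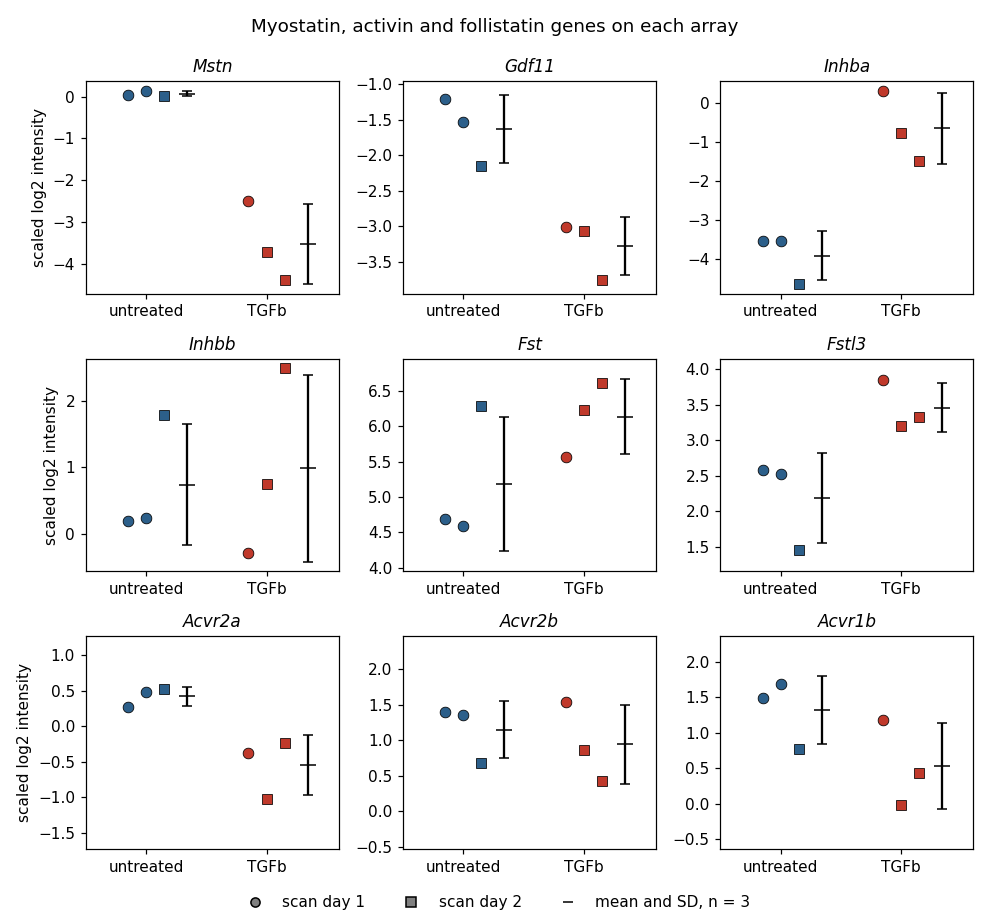
Scaled log2 intensity (log2 processed intensity minus the 75th percentile of the array; 0 is that percentile) of the 9 genes on each array, with circles for scan day 1, squares for scan day 2, and mean and SD of 3 arrays per group beside the points. All TGFb arrays lie below all untreated arrays for Mstn, Gdf11 and Acvr2a and above them for Inhba and Fstl3, and the groups overlap for the other 4 genes. Each panel has its own vertical range, so heights are not comparable between genes.

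Mstn encodes myostatin. Its scaled log2 intensity was -2.49, -3.72 and -4.38 in TGFb replicates 1 to 3 and 0.05, 0.14 and 0.02 in untreated replicates 1 to 3. The processed intensities behind these values were 169, 90.0 and 64.9 with TGFb and 906, 1099 and 1592 without. The groups did not overlap. On this scale the TGFb arrays were the more spread out, whereas in the authors' deposited table the untreated arrays were (log2 values 9.98, 9.97 and 10.81, against 7.82, 7.60 and 7.41 with TGFb). Mstn fell by 3.60 ± 0.50 on the log2 scale (SE, n = 3 per group), 12.1-fold, with a limma adjusted p of 0.034. Day-adjusted, the difference was -3.33 ± 0.39, or 10.05-fold, with an adjusted p of 0.00847. On day 1 alone it was -2.59 and on day 2 alone -4.07, so Mstn was lower with TGFb on both days. With normexp background correction the difference was smaller, -2.83 with group only and -2.67 day-adjusted (adjusted p = 0.0188 and 0.00118).

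The Mstn call did not survive every removal of an array. With group only the adjusted p was 0.195 without TGFb replicate 2, 0.115 without TGFb replicate 3, 0.186 without untreated replicate 1, 0.183 without untreated replicate 2 and 0.0775 without untreated replicate 3. In the day-adjusted fit it was 0.0619 without untreated replicate 3 (difference -2.59), the only day-2 untreated array. In each of these the gene remained lower with TGFb, and the lowest and highest log2 differences over all alternatives were -4.12 and -2.59.

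Most markers of differentiated muscle were lower along with Mstn. Of 8 such genes, all tested, 4 fell (Myf6, Myh4, Tnnc2 and Casq1), against 1.4% of all genes called. The day-adjusted fit called 6 (these and Ckm and Acta1), against 10.2%, and 5 passed with untreated replicates 1 and 2 averaged (Acta1 did not, adjusted p = 0.0809), against 3.11%. Myog (-0.46 with group only, -0.51 day-adjusted) and Myh3 (0.03 and -0.26) did not pass in any of these fits. The summed scaled intensity of all 8 genes was 526 to 893 on TGFb arrays and 1065 to 1356 on untreated arrays, with no overlap. The part of this shift in the Mstn result was not tested. In RNA from a whole culture, fewer cells of a type and less RNA per cell cannot be told apart.

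Gdf11 encodes growth differentiation factor 11, the closest relative of myostatin. Its scaled log2 intensity was -3.02, -3.06 and -3.75 with TGFb and -1.21, -1.53 and -2.15 without. The processed intensities were 117, 142 and 100 with TGFb and 378, 345 and 354 without. The groups did not overlap, and in each group the lowest array was one scanned on day 2. The difference was -1.65 ± 0.37 (SE, n = 3 per group; limma adjusted p = 0.132), which did not pass. In the day-adjusted fit Gdf11 fell by 1.45 ± 0.25, or 2.74-fold (adjusted p = 0.0269). Day 1 alone gave -1.65 and day 2 alone -1.26. Averaging untreated replicates 1 and 2 ended this call (-1.42, adjusted p = 0.0968). So did leaving out TGFb replicate 1 (limma adjusted p = 0.153), untreated replicate 1 (adjusted p = 0.100), untreated replicate 2 (adjusted p = 0.0966) or untreated replicate 3 (adjusted p = 0.147). Gdf11 was on the low side with TGFb in each of these settings. With normexp background correction the difference was smaller, -1.255 with group only (limma adjusted p = 0.180) and -1.06 day-adjusted (adjusted p = 0.0180).

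Inhba encodes the beta A subunit, whose dimer is activin A. Its scaled log2 intensity was 0.31, -0.78 and -1.50 with TGFb and -3.54, -3.54 and -4.64 without. The processed intensities were 1174, 694 and 478 with TGFb against 75.2, 85.7 and 63.0 without. The lowest TGFb array stood further above the highest untreated array than the arrays of either group stood apart. With group as the only term the difference was 3.25 ± 0.57 (9.52-fold; adjusted p = 0.0634), which did not pass. Inhba rose in the day-adjusted fit by 3.67 ± 0.24, 12.8-fold (adjusted p = 0.00222). Day 1 alone gave 3.85 and day 2 alone 3.50. With normexp background correction the size fell short of this, at 2.45 with group only (adjusted p = 0.0938) and 2.81 day-adjusted (adjusted p = 0.00098). It passed in all 10 settings that included scan day, among them those that left out each array in turn and the one that averaged untreated replicates 1 and 2 (3.65, adjusted p = 0.0176).

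Inhbb encodes the beta B subunit of activin B. Its scaled log2 intensity was -0.29, 0.75 and 2.49 with TGFb and 0.19, 0.24 and 1.79 without. The groups overlapped, and the highest array of each group was scanned on day 2. The difference was 0.24 ± 0.81 (adjusted p = 0.916), and the day-adjusted value was -0.34 ± 0.48 (adjusted p = 0.701). The sign therefore depended on whether scan day was in the fit. Within the days the differences were -0.50 and -0.17, and no direction is given for this gene.

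Fst encodes follistatin, which binds activins and myostatin. Its processed intensities were 44738, 89440 and 131677 with TGFb and 22559, 24006 and 122027 without. Its scaled log2 intensity was 5.56, 6.23 and 6.61 with TGFb and 4.69, 4.59 and 6.28 without. Untreated replicate 3 lay above 2 of the 3 TGFb arrays, so the groups overlapped. The difference was 0.95 ± 0.56 (adjusted p = 0.612), and the day-adjusted value 0.53 ± 0.24 (adjusted p = 0.226). Day 1 alone gave 0.92 and day 2 alone 0.14. By the means of each day follistatin was above the untreated value on both days. On day 2, however, TGFb replicate 2 (6.23) lay below the untreated array (6.28). Follistatin did not pass the test in any setting tried.

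Fstl3 encodes follistatin-like 3, an antagonist of activins and myostatin that lacks one of the follistatin domains. Its scaled log2 intensity was 3.85, 3.21 and 3.33 with TGFb and 2.58, 2.52 and 1.45 without. Every TGFb array lay above every untreated array. The difference was 1.27 ± 0.41, or 2.42-fold, with an adjusted p of 0.284, and did not pass with group as the only term. In the day-adjusted fit Fstl3 rose by 1.55 ± 0.18, 2.94-fold (adjusted p = 0.00783). Day 1 alone gave 1.29 and day 2 alone 1.81. It also passed with untreated replicates 1 and 2 averaged (1.59, adjusted p = 0.0451). It did not pass without untreated replicate 2 (1.58, adjusted p = 0.051) and without untreated replicate 3 (1.29, adjusted p = 0.0736).

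**Figure D2:**
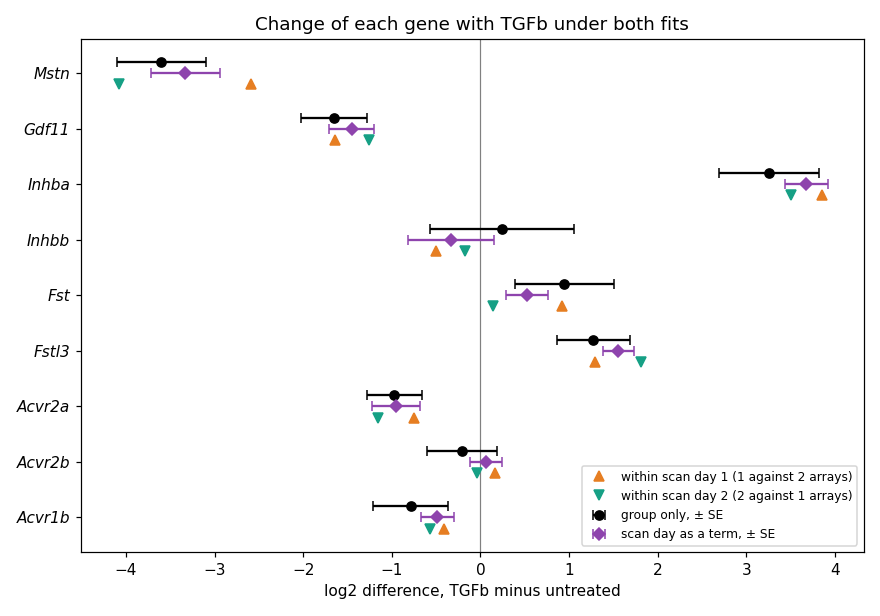
Log2 difference (TGFb minus untreated) of the 9 genes with group as the only term (black circles) and day-adjusted (diamonds), each with its SE, and the differences on each scan day alone as triangles. For every gene but Inhbb and Acvr2b the values of both days lie on the same side of 0 as both fits. For those 2 genes the fits lie on opposite sides of 0.

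The receptors showed smaller differences than Mstn and Inhba, and none passed the test in either fit. Acvr2a encodes a type II receptor. Its brighter probe (mm9, chr2:48758429-48758488, plus strand) read -0.38, -1.02 and -0.23 with TGFb and 0.27, 0.48 and 0.52 without. All TGFb arrays lay below all untreated arrays. The difference was -0.97 ± 0.31 (adjusted p = 0.278), and day-adjusted -0.95 ± 0.27 (adjusted p = 0.0901), with -0.75 and -1.15 on the single days. In the authors' deposited table of normalized values the difference was -0.89, with a limma adjusted p of 0.0257, past the threshold. A second probe of the same gene at chr2:48757324-48757383 gave -0.60 and, day-adjusted, -0.38, so the probes had the same sign and different sizes.

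Acvr2b, the other type II receptor and a high-affinity receptor for myostatin, read 1.54, 0.86 and 0.42 with TGFb and 1.40, 1.36 and 0.68 without. The groups overlapped. Its difference was -0.21 ± 0.40 (adjusted p = 0.851) and, day-adjusted, 0.06 ± 0.18 (adjusted p = 0.869), so its sign turned with the fit, as that of Inhbb did. Acvr1b encodes the type I receptor ALK4. Its brighter probe (mm9, chr15:101043956-101044015, plus strand) read 1.18, -0.02 and 0.43 with TGFb and 1.49, 1.68 and 0.77 without, with overlapping groups. The difference was -0.79 ± 0.43 (adjusted p = 0.58) and, day-adjusted, -0.49 ± 0.19 (adjusted p = 0.172). Its second probe (chr15:101042850-101042909) gave -0.15 and, day-adjusted, -0.49.

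Relatives within the set were set side by side by the difference of their log2 changes, a description of changes and not of levels, chosen with the values known. No p is given, since an exact two-sided permutation test with 3 arrays per group cannot go below 0.1. The change of Mstn minus that of Gdf11 was -1.95, with -0.94 on day 1 alone and -2.81 on day 2 alone. The change of Inhba minus that of Inhbb was 3.01, with 4.35 and 3.67 on the single days. On both days Inhba was above its untreated value. The Inhbb differences were below 0 on both days, but on day 2 TGFb replicate 3 (2.49) lay above the untreated array (1.79). No direction is therefore given for Inhbb here either. The change of Fst minus that of Fstl3 was -0.33, with -0.37 on day 1 and -1.68 on day 2. That of Acvr2a minus Acvr2b was -0.76, with -0.91 and -1.11. On both days Fst was thus less raised than Fstl3. For this pair, as for Mstn and Gdf11, the size differed between the days. That difference was not tested, and each day holds a group with 1 array. Array by array, the groups did not overlap in the difference of Mstn and Gdf11 and overlapped in every other pair. The values over all arrays hold no scan-day term, and in those other pairs they lie outside both single-day values.

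Other genes of the pathway came from a list of 39, of which 32 were tested. Inhbc, Acvr1c, Bambi, Cfc1, Igsf1, Pcsk5 and Tll2 had no probe well above background on 3 arrays. With group as the only term limma called none of the 32, with 10 at an unadjusted p under 0.05 (2534 of all 21864 genes), and their median log2 difference was 0.19 against 0.05 over all genes tested. Day-adjusted, 4 rose, 8 fell and 20 did not pass, with a median of 0.02 against 0.04. Those 12 of 32 stand beside 10.2% of all genes called in that fit. With untreated replicates 1 and 2 averaged as well, 2 passed (3.11% of all genes), Fstl1 and Bmp1, both higher. Leaving out single arrays moved the day-adjusted count of 12 to 1 without TGFb replicate 1, 8 without TGFb replicate 2, 2 without untreated replicate 1, 2 without untreated replicate 2 and 0 without untreated replicate 3 (12 at an unadjusted p under 0.05 in limma), against 13 without TGFb replicate 3. In the same order, these fits called 662, 1769, 690, 627 and 330 of all genes tested, against 3345 without TGFb replicate 3. The log2 differences of named pathway genes are day-adjusted.

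Among ligand-handling genes, Fstl1, a secreted follistatin-related glycoprotein, rose by 1.74 ± 0.17 (limma adjusted p = 0.0055). Bmp1, a tolloid-family protease able to release myostatin from its propeptide, rose by 1.72 ± 0.16 (adjusted p = 0.00486). Both were higher on every TGFb array. Furin, a proprotein convertase that cleaves the precursors of these ligands, gave 0.50 ± 0.14 (adjusted p = 0.090) and did not pass. Inha, the inhibin alpha subunit, which pairs with activin beta subunits, fell by 1.59 ± 0.30 (adjusted p = 0.0319). Its TGFb arrays all lay below the untreated arrays. Wfikkn2, a secreted binder of myostatin and GDF11, fell by 1.34 ± 0.24 (adjusted p = 0.0298), and its relative Wfikkn1 gave 0.23 ± 0.21 (adjusted p = 0.529). Dcn, the matrix proteoglycan decorin, which can bind myostatin, fell by 2.57 ± 0.37 (adjusted p = 0.0162), a size that rests in part on TGFb replicate 1, where it was not well above background. Tcap, a sarcomere protein that can bind myostatin, fell by 1.25 ± 0.17 (adjusted p = 0.0132).

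Among intracellular genes, Smad7, the inhibitory SMAD, rose by 1.61 ± 0.33 (adjusted p = 0.0404) and Smad3, which carries the signal, fell by 1.19 ± 0.19 (adjusted p = 0.022). The Smad7 groups did not overlap, while those of Smad3 did. Tgfbr1, the type I receptor for TGFb, which can also serve myostatin, gave -0.24 ± 0.21 (adjusted p = 0.501). In this fit the atrophy-linked ubiquitin ligases moved in opposite directions: Fbxo32 rose by 1.10 ± 0.23 (adjusted p = 0.0447) and Trim63 fell by 1.13 ± 0.17 (adjusted p = 0.0165). The Fbxo32 groups did not overlap, while those of Trim63 did. With group only, Trim63 gave -0.71 (limma adjusted p = 0.706). Foxo3, a transcription factor that can activate both, fell by 0.83 ± 0.16 (adjusted p = 0.0333), and Cdkn1a, a cyclin-dependent kinase inhibitor, fell by 0.94 ± 0.19 (adjusted p = 0.038). Of the 12 genes that passed here, only Fstl1 and Bmp1 did so with untreated replicates 1 and 2 averaged.

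**Figure D3:**
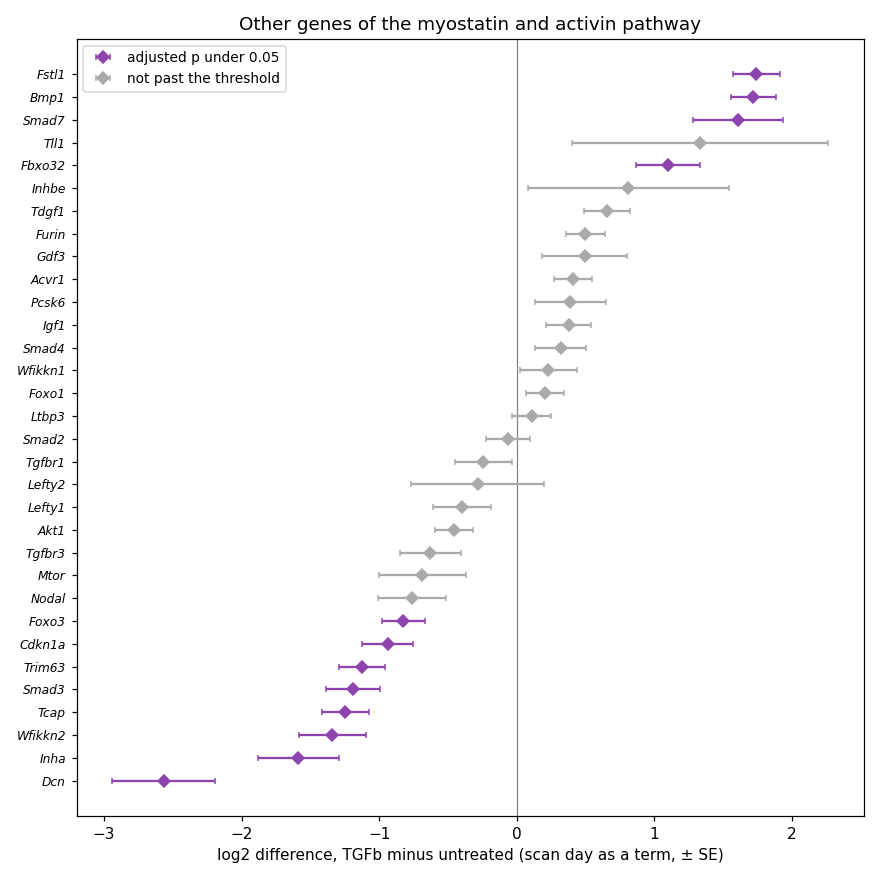
Log2 difference (TGFb minus untreated, day-adjusted, ± SE) of the 32 tested genes of the pathway list, sorted by size, with coloured points for an adjusted p under 0.05. The 4 that rose and the 8 that fell stand at the ends, from Fstl1 at 1.74 to Dcn at -2.57 (1 of its TGFb arrays was not well above background), and the other 20 lie between or have wide errors.

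The labelled cell type was checked on its markers. Of 8 myoblast markers 7 were tested, and Myf5 was well above background on 1 array. Summed myoblast marker intensity ranged from 253 to 520 with TGFb and from 301 to 519 without, with overlap. None of the 7 passed with group as the only term (2 at an unadjusted p under 0.05 in limma, against 2534 of all 21864 genes). Ncam1 rose and Des fell in the day-adjusted fit, 2 of 7 against 10.2% of all genes. Neither passed with untreated replicates 1 and 2 averaged (limma adjusted p = 0.0605 for each). The differentiated muscle markers described above summed to 526 to 893 with TGFb and 1065 to 1356 without. On every array this was above the myoblast sum. The cultures labelled myoblasts thus also held RNA of differentiated muscle genes in both groups. Fibroblast markers summed to 0.397 to 0.432 with TGFb and 0.747 to 0.796 without. Of that list Pdgfra, Ly6a, Thy1 and Pi16 were well above background on all 6 arrays, Col15a1 on 2 and Dpt on none. Thy1 fell in the day-adjusted fit, 1 of 4 tested against 10.2% of all genes. It also passed with untreated replicates 1 and 2 averaged (limma adjusted p = 0.0389), against 3.11% of all genes. Endothelial markers summed to 0.422 to 2.94 and 0.324 to 3.17. Pecam1 and Kdr were well above background on all 6 arrays, Cdh5 on 3 and Tek on none. Blood markers summed to 16.2 to 117 and 15.96 to 65.7. The blood and endothelial sums and, with a smaller gap, the myoblast sum separated the arrays by scan day and not by group. Of the blood markers, Itgam and Cd3e were well above background on all 6 arrays, Adgre1 on 2, Ptprc on 1 and Cd68 on none. Itgam read 3.97, 6.65 and 6.87 with TGFb and 3.95, 3.98 and 6.03 without on the scaled log2 scale. It made up most of the blood sum on every array. The part of these lists in the members' values was not tested.

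The tested genes with the most similar profile over the 6 arrays were named for each member from 12361 genes with ordinary symbols, as a description with no test. For Mstn they were Zfp503, Mrrf and Itga9 (Pearson r = 0.997, 0.997 and 0.996). For Gdf11 they were Ptprv, Fras1 and Mef2c (r = 0.996, 0.994 and 0.994). For Inhba they were Lrp11, Itgb3 and Cd93 (r = 0.999, 0.997 and 0.997). Profiles over 6 arrays hold few independent values, and all genes of an array share its scan day. For Inhbb they were Aldh3a1, Tcp11l2 and Actl6a, for Fst Ptgis, Snapin and Slc25a14, and for Fstl3 Pcsk2, Slc24a4 and Spsb1. For Acvr2a they were Mau2, Krt31 and Lzic, for Acvr2b Zc3h13, Abcc5 and Lix1l, and for Acvr1b Igfbp3, Hcfc2 and Chmp1a, with r from 0.989 to 0.998 over these 6 members.

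In the authors' deposited table the log2 differences were -2.64 for Mstn, -1.07 for Gdf11, 2.50 for Inhba, 1.55 for Fstl3 and -0.89 for Acvr2a, and a limma fit of it with group as the only term called these 5. That fit called 3326 genes in all, against 307 in the same fit of the scanner values. Inhbb (-0.40), Fst (0.52), Acvr2b (0.02) and Acvr1b (-0.44) did not pass there either. In that table, a pair of arrays from one group but different days differed by an SD of 0.380 to 0.404, less than a TGFb and an untreated array of one day (0.577 to 0.662), the reverse of the order in the scanner values. Fst there read 16.99, 16.28 and 16.31 with TGFb and 16.05, 15.96 and 16.003 without. Acvr1b read 11.23, 11.09 and 11.45 against 11.52, 11.81 and 11.74. For both genes the groups, which overlapped in the scanner values, did not overlap in that table. The share of all genes without overlap in that table was not computed. The sources used here do not state how the table was normalized.

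**Figure D4:**
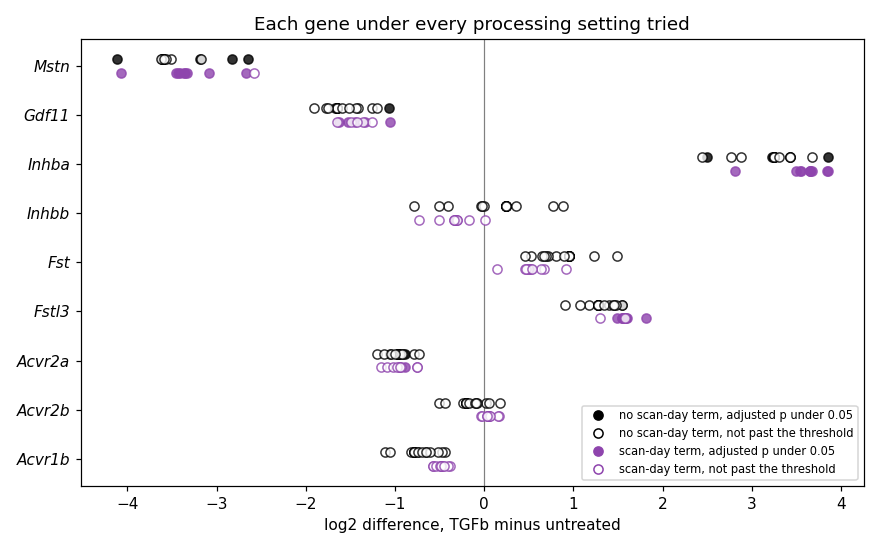
Log2 difference (TGFb minus untreated) of each gene under every processing setting, black without and purple with a scan-day term, filled where the limma adjusted p was under 0.05. Inhba is filled in every setting with scan day, Mstn in 9 of 10 and Fstl3 in 8 of 10, and Inhbb and Acvr2b fall on both sides of 0.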

How the data were processed

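Gene expression was measured on 6 Agilent 1-colour arrays, 3 TGFb and 3 untreated. Per the file headers, the deposited scanner files hold spot intensities from Agilent Feature Extraction 10.7.3.1, background-subtracted; intensities of dim spots carry more error, and the number of arrays limits the precision. The authors also deposited a table of log2 values (column medians 6.99 to 7.00, r of 0.992 to 0.993 with their own arrays), used as an alternative; the sources used here do not state its normalization.

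Control spots and outlier spots (176 to 365 per array) were left out. The log2 processed intensity minus the array's 75th percentile was averaged over spots of a probe. A probe was tested if well above background on at least 3 arrays. A gene was its brightest probe. Names were updated through RefSeq for 26300 of 55681 probes, changing 2839. Groups were compared with limma 3.58.1 (R 4.3.3), Benjamini-Hochberg adjustment over all 21864 genes and a threshold of 0.05. Scan day comes from the file headers.

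In data simulated with these arrays' scan-day differences over 21864 genes, the fit without scan day called 11 of 50 genes at a log2 change of -3 and 9 of 50 at 3. At -2 it called 1 of 50 and at 2 it called 0 of 50. With scan day the calls were 39, 44, 31 and 32, and 8 unchanged genes were called. Scan-day differences were built into these data, which favours the fit that holds scan day. Performance on data made in another way, such as with untreated replicates 1 and 2 sharing a culture, was not tested.

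The members and lists were chosen with earlier results of these data known. Named genes are all members, the listed pathway genes past the threshold in either fit plus Smad7, Tgfbr1, Wfikkn1, Wfikkn2, Furin, Bmp1, Dcn, Fbxo32 and Trim63, and the 3 most similar genes per member. Alternatives changed the background correction (normexp, offset 50), normalization, source, dim-probe filter, probe choice, batch, pairing, replicates and variance model.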

Additional observations from a re-analysis of the deposited data

How the results depend on the processing

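Mstn, Gdf11, Inhba, Fst, Fstl3, Acvr2a and Acvr1b kept their direction in all alternatives tried. Inhbb and Acvr2b (0.24 and -0.21 with group only) turned. Inhbb was -0.40 in the authors' table, -0.34 with scan day, -0.78 with slide as a block, -0.019 with untreated replicates 1 and 2 averaged and -0.31 with scan day besides, -0.30 with scan day and quantile normalization, -0.34 with scan day and normexp, and -0.73 to 0.88 with single arrays left out. Acvr2b was 0.025, 0.059 and 0.18 in the first 3 of these, 0.045 with the untreated arrays averaged and scan day, 0.067 and 0.034 with scan day and quantile or normexp, and -0.51 to 0.17 with single arrays left out. The cause was not tested.

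The number of genes called by limma was 307 with group only, 3326 in the authors' table, 2229 with scan day, 791 with slide as a block, 2627 with scan day and quantile normalization and 2520 with scan day and normexp. It was 0 with untreated replicates 1 and 2 averaged (1460 at an unadjusted p under 0.05), 681 with scan day besides, and 0 to 3345 with single arrays left out, with or without scan day. The fits with group only and 0 calls left out TGFb replicate 2, untreated replicate 1 or untreated replicate 2 (1640, 1467 and 1472 at an unadjusted p under 0.05). Members called numbered 1 with group only, 2 with quantile normalization, 5 in the authors' table, 4 with scan day, 2 with slide as a block, 4 with scan day and quantile normalization and 5 with scan day and normexp. They numbered 0 with the untreated arrays averaged (4 at an unadjusted p under 0.05), 3 with scan day besides, and 0 to 4 with single arrays left out. The other pathway genes called numbered 0 with group only, 14 in the authors' table, 12 with scan day, 4 with slide as a block, 2 with the untreated arrays averaged and scan day, 13 and 12 with scan day and quantile or normexp, and 0 to 13 with single arrays left out.

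Deviations from the group means correlated at 0.81 and 0.69 for replicate numbers 1 and 3, whose arrays share a scan day, and at -0.72 for number 2, whose arrays do not. TGFb replicate 1 with untreated replicate 2 gave 0.86 and TGFb replicate 2 with untreated replicate 3 gave 0.70, each pair sharing a scan day. The correlations thus follow scan day and cannot decide whether the numbers pair the samples. The main fits did not take them as pairs. With the replicate block 2 genes, 0 members and 0 other pathway genes were called (2960, 5 and 10 at an unadjusted p under 0.05; the Mstn difference stayed -3.60, adjusted p = 0.061). Leaving out an array with scan day in the fit, averaging untreated arrays, and combining scan day with another normalization or background correction were chosen after seeing the data. Fits that leave out an array or average rest on few residual degrees of freedom. Mstn and Gdf11 with TGFb and Inhba without lay at low processed intensities (at most 169, 142 and 85.7), where background subtraction weighs most.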
